A study of Mus musculus with 8 samples.

Results

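The genes described here encode the proteins that fold procollagen and hydroxylate its prolines in the endoplasmic reticulum. They were taken by symbol: Serpinh1, the FK506-binding proteins Fkbp7, Fkbp9, Fkbp10 and Fkbp14, Crtap, every P3h and P4ha gene, and Tmem38b. The mouse annotation holds 14 such genes, and 12 of them were among the 1994 genes of the deposited table. P3h2, a prolyl 3-hydroxylase, and Tmem38b, a potassium channel of the endoplasmic reticulum, were not among the listed genes, and nothing is said here of their level.

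Collagen chains are hydroxylated on prolines and lysines while they are still unfolded. Prolyl 4-hydroxylation makes the triple helix stable at body temperature, prolyl isomerases clear slow steps of folding, and the chaperone HSP47, the product of Serpinh1, holds the folded helix until it leaves for the Golgi. In bone this machinery serves mainly the type I collagen made by osteoblasts, and loss of several of its members causes osteogenesis imperfecta or related disorders of fragile bone in humans.

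RNA came from femoral cortical bone whose marrow had been flushed out. The 4 FGFR1-CKO libraries carried DMP1-CreER and Fgfr1f/f, and the 4 Control libraries carried Fgfr1f/f alone. DMP1-CreER is a tamoxifen-inducible Cre recombinase driven by Dmp1 sequences, active mainly in osteocytes and late osteoblasts. Both genotypes received tamoxifen in the diet (400 mg/kg chow) for 4 weeks from the age of 12 weeks, and bone was taken at 16 weeks. No library of either genotype without tamoxifen and no Cre line without the floxed allele was analysed here, so the presence of Cre and loss of Fgfr1 cannot be told apart.

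The submitters sequenced 7 FGFR1-CKO and 6 Control samples and kept the 4 FGFR1-CKO samples lowest and the 4 Control samples highest in Fgfr1, and their table lists only genes that passed their own test, of which those lower in FGFR1-CKO were 7.02% of the 18026 genes tested. Every p-value below is conditional on both choices. The labels do not say whether each library is a separate mouse, so the p-values measure the spread between these libraries, which may be technical. Library totals, inferred from the steps of the CPM values, lay between 9642436 and 11094287 reads. CPM are the reads of the gene, scaled to a library total of 1000000 reads. Fgfr1 averaged 318 ± 32.1 CPM in FGFR1-CKO and 594 ± 71.3 CPM in Control (SD, n = 4 each). Because Fgfr1 was the basis of the selection, this gap was favoured in advance and is no independent check of the labels. All 14 osteoblast markers were listed, and their mean log2(CPM + 1) lay between 7.32 and 7.45 in FGFR1-CKO and between 8.13 and 8.21 in Control. Sost, Fgf23, Dkk1 and Ackr3 were not among the listed genes, and the other 8 osteocyte markers were.

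The promoters of 4 members are given because Serpinh1 and Crtap lie at or near opposite ends of the range of log2 fold changes, and P4ha1 and P4ha2 encode alternative catalytic subunits of the same enzyme. The sequences are RefSeq, build GRCm38.p6, each written 5′ to 3′ from 250 bases before to 50 bases after an annotated start. They cover chr7:99353190-99353489 on the minus strand for Serpinh1, chr9:114390663-114390962 on the minus strand for Crtap, chr10:59323046-59323345 on the plus strand for P4ha1 and chr11:54100674-54100973 on the plus strand for P4ha2. Capitals mark the GC box GGGCGG and the hypoxia response core ACGTG on either strand.
Serpinh1: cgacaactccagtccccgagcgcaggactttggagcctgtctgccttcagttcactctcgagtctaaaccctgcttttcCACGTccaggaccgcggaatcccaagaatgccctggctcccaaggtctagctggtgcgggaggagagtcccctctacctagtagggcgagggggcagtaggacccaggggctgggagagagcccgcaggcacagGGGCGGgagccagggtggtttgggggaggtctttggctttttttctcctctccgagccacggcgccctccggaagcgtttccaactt
Crtap: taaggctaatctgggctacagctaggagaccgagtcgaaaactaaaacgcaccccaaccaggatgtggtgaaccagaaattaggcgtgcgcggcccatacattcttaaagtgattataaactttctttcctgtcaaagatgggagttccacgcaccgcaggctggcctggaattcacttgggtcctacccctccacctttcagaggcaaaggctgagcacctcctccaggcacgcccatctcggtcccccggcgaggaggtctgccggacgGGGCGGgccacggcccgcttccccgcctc
P4ha1: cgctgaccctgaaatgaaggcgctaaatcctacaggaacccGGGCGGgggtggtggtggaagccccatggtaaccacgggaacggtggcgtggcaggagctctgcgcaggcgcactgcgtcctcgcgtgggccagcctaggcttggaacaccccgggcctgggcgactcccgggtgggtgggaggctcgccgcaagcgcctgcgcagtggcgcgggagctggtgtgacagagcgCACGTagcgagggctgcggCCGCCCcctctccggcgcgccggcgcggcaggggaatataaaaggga
P4ha2: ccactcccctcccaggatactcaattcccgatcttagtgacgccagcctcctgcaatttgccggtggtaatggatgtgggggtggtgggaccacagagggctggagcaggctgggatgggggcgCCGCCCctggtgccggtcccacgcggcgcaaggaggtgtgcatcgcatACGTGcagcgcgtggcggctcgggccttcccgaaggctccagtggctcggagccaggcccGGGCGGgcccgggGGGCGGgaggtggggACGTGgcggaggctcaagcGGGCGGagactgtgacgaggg
Of the 12 listed members, 10 had an entry in the promoter table, with 12 promoters in all, and Fkbp10 and P3h4 had none. The GC box stood in 9 of these 12 promoters, from 8 genes, against 35.7% of all 32851 promoters in the table and 60.7% of the promoters of listed genes lower in FGFR1-CKO. The hypoxia core stood in 6 of the 12 promoters, from 6 genes, against 19.6% of all promoters and 19.9% of those of the lower genes. The P4ha2 promoter held 4 GC boxes and 2 hypoxia cores, and the Serpinh1 promoter held 1 of each. The TATA box TATAAA was found for Crtap and P4ha1, the letters CCAAT for Fkbp7, Fkbp14 and P3h1, and neither the heat shock element nor the ER stress response element for any of the 10, all searched on both strands, with the CCAAT letters also being part of the ER stress response element. Of all promoters, 13.6% held the TATA box, 37.4% CCAAT, 0.603% the heat shock element and 0.119% the ER stress response element. The heat shock and ER stress patterns are so rare that their absence from 12 promoters says little, and variant letters were not searched. These matches describe the letters of the windows and say nothing of what binds there.

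All 12 listed members fell in FGFR1-CKO bone, and none rose. The call required an adjusted p under 0.05 (limma on log2(CPM + 1), Benjamini-Hochberg over all 1994 genes) and a log2 fold change of at least 0.5 in size, and 38.4% of the listed genes were called lower by it (62.9% with no minimum size). Because every listed gene had already passed the authors' test, the call on members is not independent of their being listed. The members' log2 fold changes lay between -1.13 and -0.63, with a median of -0.74. The median was -0.54 over the 1265 listed genes that were lower in the authors' deposited table, of which 766 passed the same call, and -0.43 over all listed genes. Every FGFR1-CKO library was below every Control library for each of the 12. The same held for 54.9% of all listed genes, and for 1094 of the 1265 that were lower in the authors' table. The exact 2-sided permutation p was 0.0286 for each of the 12 members, the smallest that 4 against 4 libraries can give. In bulk bone, fewer cells of a type and less RNA per cell cannot be told apart.

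**Figure D1:**
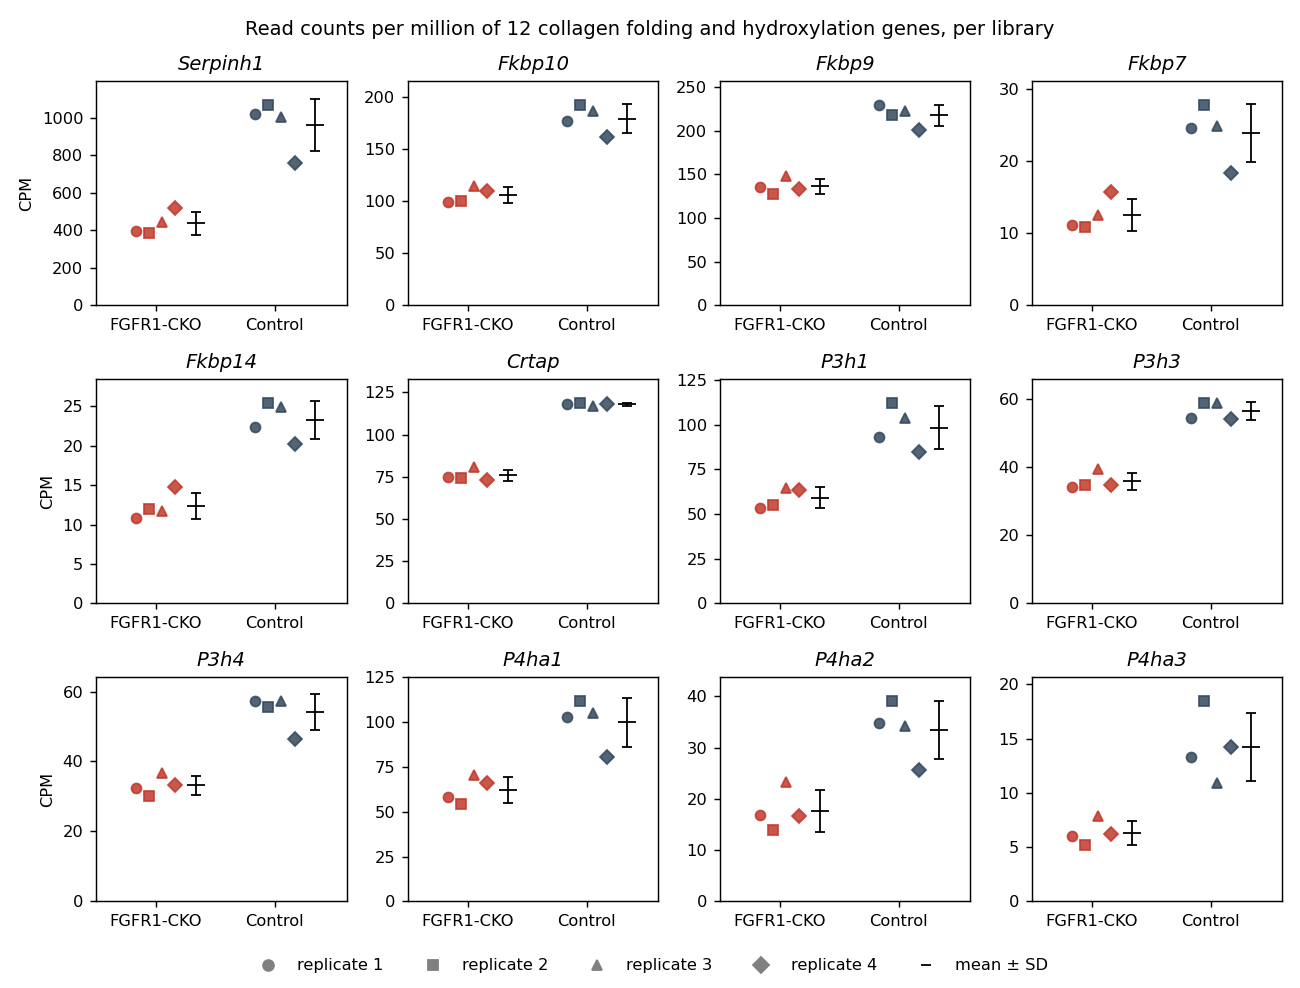
Scaled reads (CPM, vertical axes from 0) of the 12 listed genes in each FGFR1-CKO (left, red) and Control (right, dark) library; marker shapes give the replicate and bars the mean ± SD (n = 4). The groups do not overlap in any panel; FGFR1-CKO averages 44.3% to 64.4% of Control.

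Serpinh1, the collagen-specific chaperone HSP47, had the lowest log2 fold change of the members on log2(CPM + 1), with P4ha3 close to it. The gene lies on chromosome 7 of mm10, from 99345376 to 99353239 on the minus strand. Its CPM were 399, 387, 445 and 520 in FGFR1-CKO replicates 1 to 4, and 1020, 1067, 1004 and 760 in Control replicates 1 to 4. FGFR1-CKO replicate 4 was the highest of its group and Control replicate 4 the lowest of its own, and the groups did not overlap. The mean was 45.4% of Control, with a log2 fold change of -1.13 (SE 0.13, 95% interval -1.41 to -0.86, adjusted p = 1.47e-05 by limma). By size of fall Serpinh1 was number 20 of the 1265 lower genes. P4ha3 had the lower value with a pseudocount of 0.1 (-1.15, against -1.14 for Serpinh1) and without Control replicate 3 (-1.16, against -1.11), the values were level without FGFR1-CKO replicate 3, and P4ha3 was also the lower in percent of Control (44.3% against 45.4%), so the order of the 2 genes is not settled. Per kb of exon, Serpinh1 was also the most abundant of the 12, at 179 ± 24.7 CPM per kb in FGFR1-CKO and 394 ± 56.4 CPM per kb in Control. Next in Control were Crtap (66.5 CPM per kb), Fkbp9 (65.8 ± 3.68 CPM per kb) and Fkbp10 (61.2 ± 4.63 CPM per kb), and Fkbp9 and Fkbp10 each differed from the gene before it by less than its own SD. P4ha3 was the lowest, with 2.01 ± 0.36 CPM per kb in FGFR1-CKO and 4.55 ± 1.00 CPM per kb in Control.

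The 4 FK506-binding proteins are peptidyl-prolyl isomerases of the endoplasmic reticulum, and all fell. Fkbp10 encodes FKBP65, which binds collagen and is needed for the lysyl hydroxylation that PLOD2 carries out in the collagen telopeptides. It had 99.8, 100, 115 and 109 CPM in FGFR1-CKO and 177, 192, 187 and 161 CPM in Control, a log2 fold change of -0.75 (SE 0.08, adjusted p = 1.08e-05 by limma). Fkbp9 had 136, 128, 148 and 133 CPM in FGFR1-CKO and 229, 218, 223 and 201 CPM in Control, a log2 fold change of -0.67 (SE 0.07). For both of these isomerases the groups were well apart, with FGFR1-CKO replicate 3 the highest of its group and Control replicate 4 the lowest of its own. Fkbp7 had 11.1, 10.9, 12.5 and 15.7 CPM in FGFR1-CKO and 24.5, 27.8, 24.9 and 18.3 CPM in Control, a log2 fold change of -0.87 (SE 0.14). Fkbp14, whose human counterpart is mutated in a kyphoscoliotic form of Ehlers-Danlos syndrome, had 10.9, 12.0, 11.7 and 14.8 CPM in FGFR1-CKO and 22.4, 25.4, 25.0 and 20.2 CPM in Control, a log2 fold change of -0.86 (SE 0.11). For Fkbp7 and Fkbp14, as for Serpinh1, FGFR1-CKO replicate 4 was the highest of its group and Control replicate 4 the lowest of its own. The lowest read count behind a value here was 105, for Fkbp14 in an FGFR1-CKO library.

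Crtap and P3h1 encode a scaffold and the enzyme of the complex that, with cyclophilin B, carries out prolyl 3-hydroxylation of type I collagen chains and holds the chain during folding. Crtap had 75.2, 74.2, 80.9 and 73.3 CPM in FGFR1-CKO and 118.2, 118.7, 116.7 and 118.0 CPM in Control. The Control libraries differed little, with an SD of 0.86 CPM, and Control replicate 4 did not stand low as it did for Serpinh1. The log2 fold change of Crtap was -0.63 (SE 0.06, adjusted p = 9.23e-06 by limma). Without Control replicate 2 or 3, or without FGFR1-CKO replicate 1 or 2, P4ha1 or P3h3 fell slightly less than Crtap. P3h1 had 53.5, 54.8, 64.7 and 63.5 CPM in FGFR1-CKO and 93.1, 112, 104 and 84.7 CPM in Control, a log2 fold change of -0.72 (SE 0.10). The ratio of P3h1 to Crtap was 0.78 in FGFR1-CKO and 0.83 in Control (geometric means), a log2 difference of -0.09 with overlapping groups (exact permutation p = 0.429).

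P3h3 and P3h4 are related proteins that in mice act together with lysyl hydroxylase 1, and P3h4 lacks enzyme activity. P3h3 had 34.3, 34.9, 39.5 and 34.7 CPM in FGFR1-CKO and 54.5, 58.9, 58.9 and 54.1 CPM in Control, a log2 fold change of -0.64 (SE 0.07). P3h4 had 32.4, 30.2, 36.8 and 33.2 CPM in FGFR1-CKO and 57.2, 55.7, 57.3 and 46.4 CPM in Control, a log2 fold change of -0.69 (SE 0.09). FGFR1-CKO replicate 3 was the highest of its group for both genes. The ratio of P3h3 to P3h4 was 1.08 in FGFR1-CKO and 1.05 in Control, a log2 difference of 0.05 (exact permutation p = 0.429). P3h4 and Fkbp10 lie side by side on chromosome 11 of mm10, at 100408456 to 100414836 on the minus strand and 100415697 to 100424824 on the plus strand, with annotated starts 861 bases apart. They are the closest pair of members in the genome, followed by Serpinh1 and P4ha3 on chromosome 7, whose starts lie 932281 bases apart.

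The P4ha genes encode the catalytic alpha subunits of collagen prolyl 4-hydroxylase, each of which pairs with protein disulfide isomerase, the product of P4hb. P4ha1 had 58.5, 54.5, 70.4 and 66.1 CPM in FGFR1-CKO and 103, 112, 105 and 80.4 CPM in Control, a log2 fold change of -0.67 (SE 0.11). P4ha2 had 16.8, 13.9, 23.3 and 16.6 CPM in FGFR1-CKO and 34.9, 39.1, 34.2 and 25.6 CPM in Control, a log2 fold change of -0.89 (SE 0.16). The gap was narrow for P4ha2, between 23.3 CPM in FGFR1-CKO replicate 3 and 25.6 CPM in Control replicate 4. P4ha3 had 6.02, 5.16, 7.88 and 6.20 CPM in FGFR1-CKO and 13.4, 18.5, 10.96 and 14.2 CPM in Control, from 51 to 82 reads per FGFR1-CKO library and 119 to 205 per Control library. Its log2 fold change of -1.05 (SE 0.16, adjusted p = 8.86e-05 by limma) was next to that of Serpinh1. With a pseudocount of 5 the value of P4ha3 was -0.76, against -1.13 for Serpinh1 and -0.77 for P4ha2. Per kb of exon, P4ha1 was the most abundant subunit, at 15.2 ± 1.75 CPM per kb in FGFR1-CKO and 24.3 ± 3.33 CPM per kb in Control, against 2.83 ± 0.64 and 5.36 ± 0.91 CPM per kb for P4ha2. The ratio of P4ha1 to P4ha2 in CPM was 3.48, 3.93, 3.02 and 3.97 in FGFR1-CKO and 2.94, 2.86, 3.08 and 3.15 in Control. FGFR1-CKO replicate 3 alone lay within the Control range, and the log2 difference of 0.25 did not pass the test (exact permutation p = 0.0857, 0.171 after adjustment over the 6 ratios).

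The members were next set against type I collagen, their main client. Col1a1 and Col1a2 together took 72078, 71293, 112212 and 67667 CPM in FGFR1-CKO and 121245, 172061, 151266 and 127712 CPM in Control. They fell by log2 fold changes of -0.84 (Col1a1, SE 0.25, adjusted p = 0.00750) and -0.84 (Col1a2, SE 0.21, adjusted p = 0.00265 by limma). FGFR1-CKO replicate 3 stood far above the rest of its group. On log2(CPM + 1) minus log2 collagen I of the same library, 0 of 12 members passed an adjusted p under 0.05 in either direction (limma). On that scale 0.201% of all listed genes were called lower and 36.6% higher. Of the 1265 listed genes lower in the authors' table, 4 were called lower and 1 higher. At an unadjusted p under 0.05 the count was 0 of the 12 members, 13 of those 1265 genes and 742 of all 1994. The members' differences had a median of 0.10, with 5 below 0 and 7 above. The median was 0.41 over all listed genes and 0.30 over the listed lower genes. The members' median was 0.0035 without FGFR1-CKO replicate 4, 0.05 without Control replicate 2, 0.16 without Control replicate 1, and 0.23 when FGFR1-CKO replicate 3 was left out, and the difference of Serpinh1 lay between -0.45 and -0.13 with 1 library left out. With all 8 libraries the differences ranged from -0.29 for Serpinh1 (95% interval -0.69 to 0.10, adjusted p = 0.269) to 0.21 for Crtap (-0.29 to 0.72, adjusted p = 0.519). The intervals on this scale were wide, with lower ends from -0.75 to -0.29 and upper ends from 0.10 to 0.72 over the 12 members, so a missed threshold does not show that a member followed collagen I. Serpinh1 CPM per 1000 CPM of collagen I were 5.54, 5.42, 3.96 and 7.68 in FGFR1-CKO and 8.41, 6.20, 6.64 and 5.95 in Control, and the groups overlapped.

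**Figure D2:**
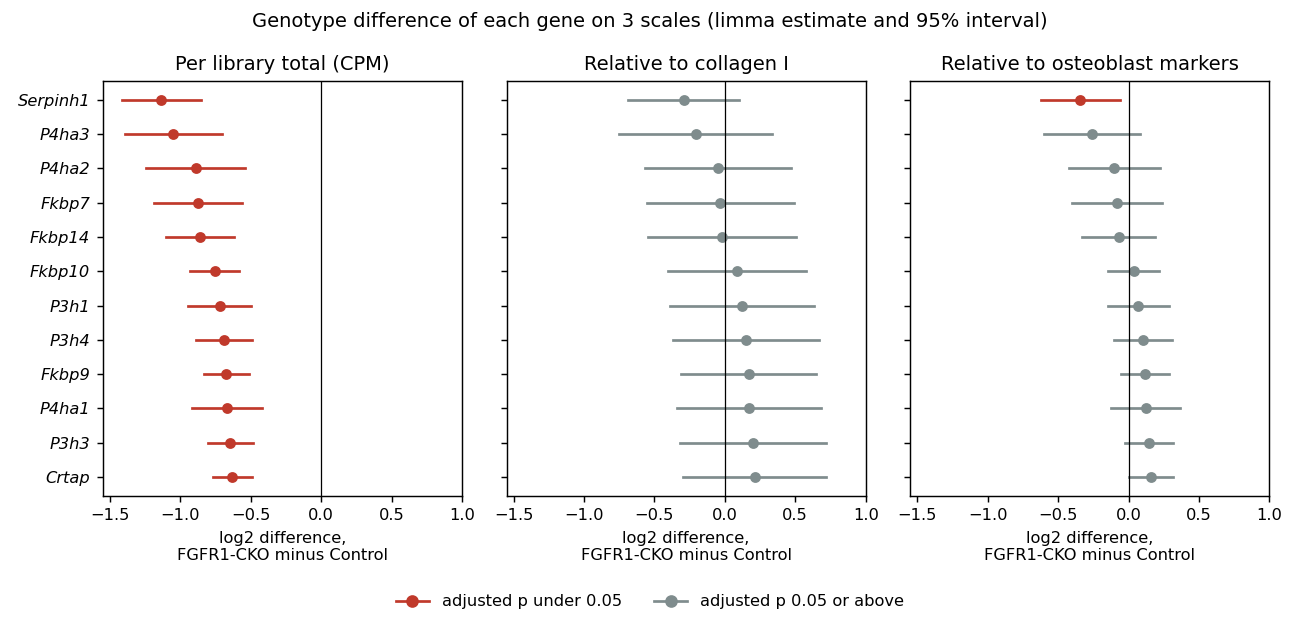
Log2 difference, FGFR1-CKO minus Control, of each of the 12 genes per library total, relative to collagen I (Col1a1 + Col1a2) and relative to the mean of 14 osteoblast markers (limma estimate with 95% interval, n = 4 each; red where the p adjusted over 1994 genes is under 0.05). All 12 lie below 0 on the first scale, none passes relative to collagen I, and Serpinh1 alone passes relative to osteoblast markers; the interval of Crtap on that scale lies just above 0 but its adjusted p is 0.0708.

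Against the mean log2 level of the 14 osteoblast markers in the same library, Serpinh1 was lower in FGFR1-CKO and the other 11 members did not pass. These markers are themselves listed genes, and 13 of the 14 were called lower, with a median log2 fold change of -0.70. A small difference on this scale therefore says only that a member fell about as much as this chosen reference. The difference was -0.34 for Serpinh1 (SE 0.13, 95% interval -0.62 to -0.06, unadjusted p = 0.0203 and adjusted p = 0.0355 by limma). On this scale 0.953% of all listed genes were called lower and 60.9% higher. With so many genes called higher, the adjustment raised p only a little and gives weak control for a single member. Of the 1265 listed genes lower in the authors' table, 19 were called lower and 485 higher. Leaving out any one of FGFR1-CKO replicates 1, 2 and 3 or Control replicates 1, 2 and 3 ended the call of Serpinh1, with adjusted p between 0.0584 and 0.0983 and differences between -0.33 and -0.28. The members' median difference was 0.05, against 0.36 over all listed genes and 0.25 over the listed lower genes. Crtap, at 0.16 (interval 0.0026 to 0.32), lay at the other end of the range, with an adjusted p of 0.0708.

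Ratios to Serpinh1 within a library do not depend on the library total. Crtap to Serpinh1 was 0.188, 0.192, 0.182 and 0.141 in FGFR1-CKO and 0.116, 0.111, 0.116 and 0.155 in Control, a log2 difference of 0.50. Fkbp10 to Serpinh1 was 0.250, 0.259, 0.258 and 0.211 in FGFR1-CKO and 0.174, 0.180, 0.186 and 0.212 in Control, a log2 difference of 0.37. In both ratios replicates 1 to 3 of the 2 genotypes did not overlap, and replicate 4 of each genotype lay between them, with FGFR1-CKO replicate 4 below Control replicate 4. Neither difference passed (exact permutation p = 0.0571 each, 0.171 after adjustment over the 6 ratios). Fkbp10 to Plod2, its lysyl hydroxylase partner, was 0.96 in FGFR1-CKO and 0.94 in Control (exact permutation p = 0.686). Serpinh1 made up 42.8, 42.7, 42.1 and 47.8% of the members' summed CPM in FGFR1-CKO and 52.4, 52.2, 51.5 and 48.0% in Control, so that the 2 replicates numbered 4 nearly met.

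**Figure D3:**
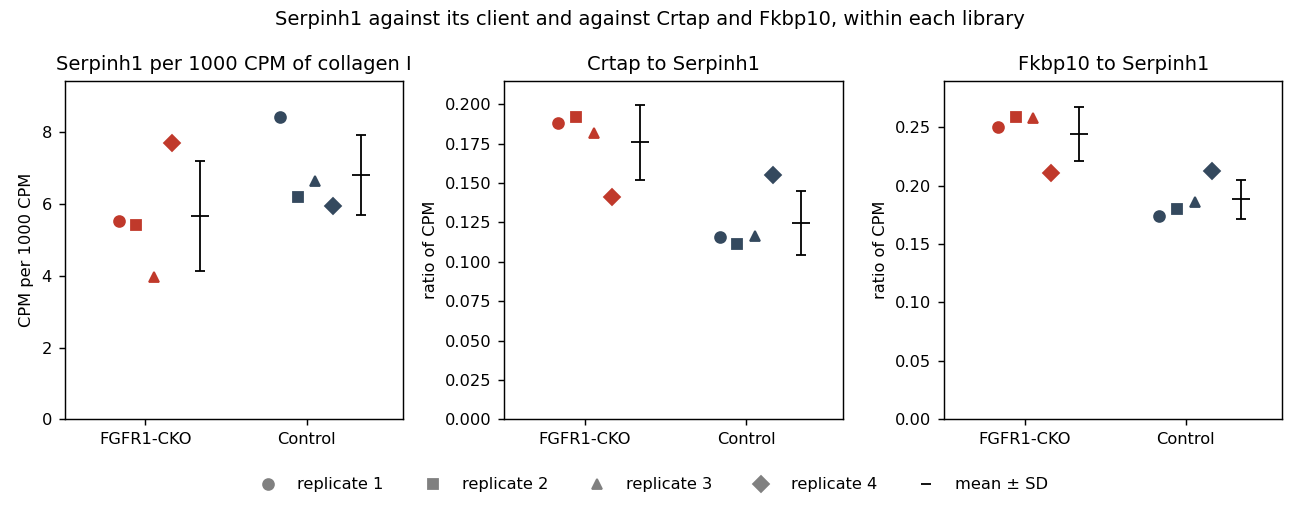
Serpinh1 CPM per 1000 CPM of collagen I (left), Crtap to Serpinh1 (middle) and Fkbp10 to Serpinh1 (right) as ratios of CPM in each library, FGFR1-CKO left and Control right, with mean ± SD (n = 4). The groups overlap in all 3 panels; in the ratios to Serpinh1 the overlap comes from replicate 4 of each genotype.

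The libraries of a genotype differed from one another in the same direction for most members. FGFR1-CKO replicate 3 was the highest of its group for 9 of the 12, and FGFR1-CKO replicates 1 and 2 were below the group mean for all 12. Control replicate 2 was the highest for 10 and Control replicate 4 the lowest for 10. Without both FGFR1-CKO replicate 3 and Control replicate 4, all 12 members still passed, with log2 fold changes from -1.25 to -0.66.

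The rest of the collagen pathway was described by lists of genes. For comparison, 766 of the 1265 listed genes lower in the authors' table passed the same call, and none of them rose. Of 23 collagen chains, 19 were listed, 18 fell and none rose, with a median log2 fold change of -0.84. Col6a2, a chain of the microfibrils around cells, averaged 260 ± 34.8 CPM in FGFR1-CKO and 566 ± 78.5 CPM in Control, a log2 fold change of -1.12. Col24a1, a fibrillar chain of bone, averaged 120 ± 6.80 CPM in FGFR1-CKO and 232 ± 19.2 CPM in Control (-0.94). Of 5 lysyl hydroxylases and glycosyltransferases, 2 were listed: Plod2, which acts on telopeptides, fell (-0.79, SE 0.12), and Plod1, which acts on the helix, had a log2 fold change of -0.47, short of the size required. Both passed without FGFR1-CKO replicate 3, without Control replicate 4 and with the authors' size factors. All 4 listed of 10 procollagen proteinase genes fell, among them Bmp1, which removes the C-propeptide (-0.65), its enhancer Pcolce (-0.97) and Adamts2, which removes the N-propeptide (-0.79). Of the 5 lysyl oxidases that crosslink collagen, all were listed and 4 fell, with Lox at -0.88 and Loxl1 at -0.76, and Loxl4 (-0.45) did not pass.

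Of 23 general folding genes of the endoplasmic reticulum, 2 were listed, where 11.1% of all tested genes were, and both fell: the isomerase genes Ppic (-0.64, SE 0.12) and Fkbp11 (-0.63, SE 0.10). Among the genes not listed were P4hb, the partner of the P4ha subunits, and Ppib, cyclophilin B, the partner of Crtap and P3h1, and their levels are not given here. Of 10 regulators of the unfolded protein response, 2 were listed. Creb3l1, encoding the transcription factor OASIS that drives collagen I in mouse osteoblasts, averaged 89.6 ± 12.4 CPM in FGFR1-CKO and 175 ± 32.2 CPM in Control, a log2 fold change of -0.95 (adjusted p = 6.96e-05 by limma). Its relative Creb3l2 had a log2 fold change of -0.42 and did not pass. Of 14 procollagen export genes, 5 were listed and 3 fell, among them Kdelr3, a receptor that returns proteins to the endoplasmic reticulum (-0.85), and Lman1, a cargo receptor (-0.53). That count was 1 when the library totals left out the reads of listed genes higher in FGFR1-CKO, and 5 with the authors' size factors. Of 10 other 2-oxoglutarate oxygenases, P4htm alone was listed (-0.44) and did not pass, but it did without FGFR1-CKO replicate 2. Of 18 osteogenesis imperfecta genes outside the members, 11 were listed, 10 fell and none rose, among them Serpinf1 (-1.37), Sparc (-1.02) and Sp7 (-0.68). Col1a1, Col1a2, Bmp1, Creb3l1, Plod2, Sec24d and Kdelr2 were already counted in the lists above. Sp7 and Ifitm5 are also among the osteoblast markers.

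**Figure D4:**
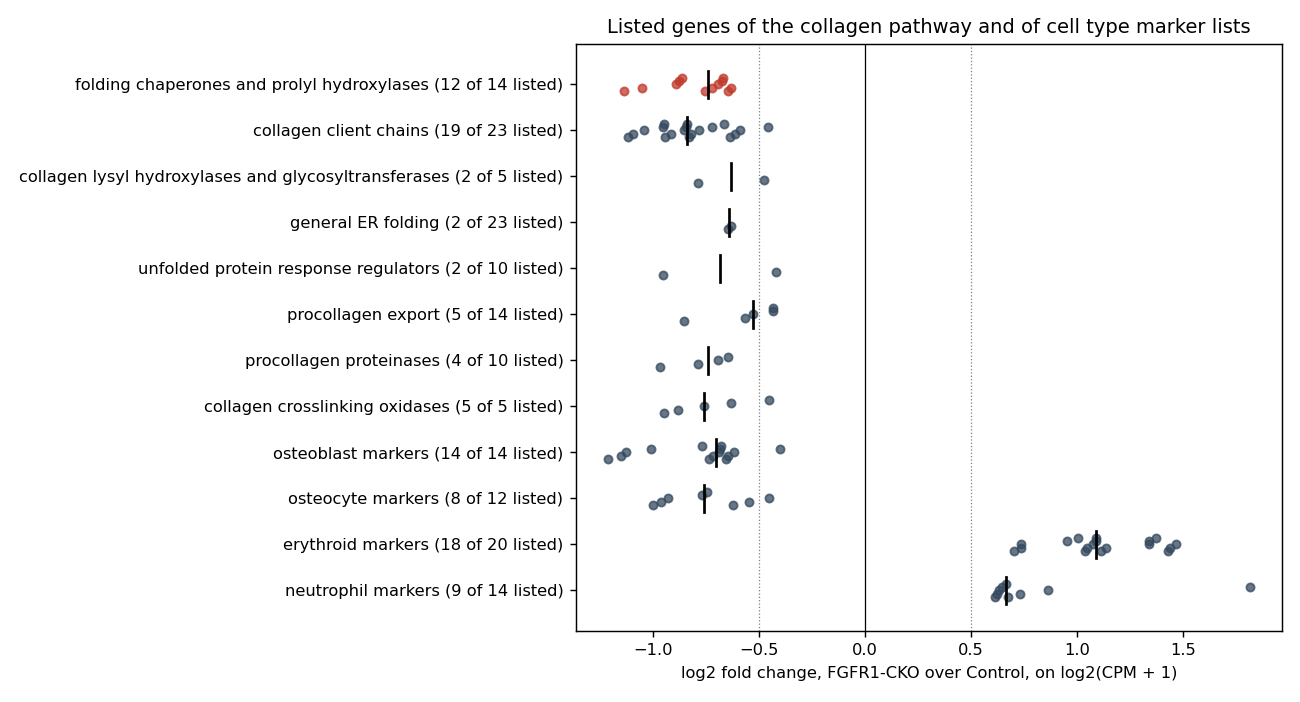
Log2 fold change, FGFR1-CKO over Control, on log2(CPM + 1) of every listed gene of the members (red) and of the pathway and marker lists (dark); black ticks are list medians and dotted lines the size required for a call. The members lie between -1.13 and -0.63, among the other collagen pathway lists, and the erythroid and neutrophil markers lie above 0.5.

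Markers of other cell types moved with genotype in the same libraries. Of 14 osteoblast markers 13 fell, with Ibsp at 648 ± 19.7 CPM in FGFR1-CKO and 1038 ± 14.9 CPM in Control, and of 12 osteocyte markers 8 were listed and 7 fell, Gja1 among them (-0.93). Of 20 erythroid markers, 18 were listed and all 18 rose, with Klf1 at 1.14. The erythroid markers took 2.06% to 2.45% of reads in FGFR1-CKO and 0.704% to 1.00% in Control. Of 14 neutrophil markers 9 were listed and rose, with Camp at 0.86, and of 10 B cell markers 4 were listed and rose, with Dntt at 0.97. All 7 listed of 11 osteoclast markers fell, as did all 3 listed of 10 fibroblast, tendon and periosteum markers, with Postn at -1.01. Of 11 endothelial markers 7 were listed and 4 fell. That count was 2 without Control replicate 1, 5 without Control replicate 2 or FGFR1-CKO replicate 1, and 6 with the authors' size factors. Of 9 chondrocyte markers 1 was listed, Comp (-0.47), which did not pass but did without FGFR1-CKO replicate 1 or 2 or Control replicate 2, and none of 9 skeletal muscle markers was listed. The part of cell composition in the members' fall was not tested. With the erythroid reads left out of the library totals, the median log2 shift over all listed genes was 0.019. The members' log2 fold changes were then -1.11 to -0.61. With the reads of every listed gene higher in FGFR1-CKO left out, the median shift was 0.068 and the members fell by -1.06 to -0.56. Reads of unlisted genes stayed in the totals, so these rescalings do not test composition.

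The genes most like Serpinh1, Fkbp10 and Crtap across the 8 libraries were taken as those with the smallest root mean square difference between centred log2(CPM + 1) profiles, among 1179 listed genes. For Serpinh1 they were Cdo1 (0.071), Plxna2 (0.093) and the client chain Col6a2 (0.109), all closer than its nearest member, Fkbp7 (0.135). For Fkbp10 they were Mmp16 (0.056), Zfp469 (0.058) and Prrx1 (0.059), and its nearest member P3h1 lay at 0.055. For Crtap they were Megf10 (0.031), the osteoblast marker Ibsp (0.036) and Hspg2 (0.038), with P3h3 the nearest member at 0.049. Genotype is shared by all these profiles, so the likeness is a description.

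The submitters also deposited a list of 627 gene symbols from Ocy454 cells, a mouse osteocyte-like cell line, used here without values or directions. It held 5 of the 12 members, Serpinh1, Fkbp7, Fkbp9, Fkbp10 and Fkbp14, and 9.18% of all 1994 listed genes. None of the P3h or P4ha genes and not Crtap was in it.

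Some of the reads behind the values may come from neighbours. In the annotation Crtap overlaps 4930520O04Rik by 2096 bases, Fkbp10 overlaps Nt5c3b by 2504 bases and Fkbp14 overlaps Plekha8 by 2198 bases, each on the opposite strand, and the use of strand in counting is not given in the sources used here.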

How the data were processed

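The labels' protocols describe removal of ribosomal RNA, after which cDNA was primed with random hexamers and libraries were sequenced as paired ends. Per the submitters' processing notes, build mm10 and the tools STAR 2.7.9a, cutadapt, Subread 2.0.1 with featureCounts, RSEM, DESeq2 and edgeR were used, with no role stated for each. The sources used here give neither the annotation version nor the use of strand. The deposited table gives CPM per library for 1994 genes, with the authors' log2 fold change and adjusted p-value, and lists only genes that passed their test: 1265 lower and 729 higher of 18026 tested. These genes also kept to the limits of size and mean CPM given in the Results. The authors' deposited mean normalized signal per gene served only to recover their size factors, and their deposited test score and fold ratio were not used. The number of genes tested was worked out from the ratio of their adjusted to raw p-value. Library totals were inferred as the smallest that turn every deposited CPM value into a whole read within 0.001 reads.

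From the deposited CPM, limma 3.58.1 in R 4.3.3 was fitted to log2(CPM + 1) with a mean-variance trend, and p was adjusted by the Benjamini-Hochberg method over all 1994 genes. The same fit was run after subtracting log2 collagen I or the mean of 14 osteoblast markers. The 6 within-library ratios had exact 2-sided permutation tests. Levels per kb used the summed exon length of GENCODE M21, whose build, GRCm38, is the one the notes call mm10. Named genes were all listed members, up to 4 listed genes per pathway list and up to 2 per marker list by smallest adjusted p, Fgfr1, Col1a1, Col1a2, and the 3 nearest profiles of Serpinh1, Fkbp10 and Crtap among genes averaging at least 20 CPM. A P4ha2 to P4hb ratio was planned and not run, since P4hb is not listed. The genes and lists were chosen with earlier results of these data known. The fit was tested on simulated data. Alternatives were pseudocounts of 0.1 and 5, a filter at 20 CPM, other library scalings and leaving out libraries.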

Additional observations from a re-analysis of the deposited data

Results flagged for a closer look

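In 6 of 62 groups of 4 libraries, 1 library stood apart from the other 3 by more than the 95% critical value of Dixon's test, its gap to the nearest being set against the group's range. Chance flags about 1 in 20 groups.

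FGFR1-CKO replicate 3 gave 3 of them. Its collagen I was 112212 CPM, against 67667 to 72078 CPM in the other FGFR1-CKO libraries. Its P3h3 was 39.5 CPM, against 34.3 to 34.9 CPM. Its Crtap per 1000 CPM of collagen I was 0.721, against 1.04 to 1.08.

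Control replicate 4 gave 2. Its P3h4 was 46.4 CPM, against 55.7 to 57.3 CPM in the other Control libraries. Its ratio of Crtap to Serpinh1 was 0.155, against 0.111 to 0.116.

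Control replicate 3 gave 1: its P4ha3 per 1000 CPM of collagen I was 0.0725, against 0.107 to 0.111 in the other Control libraries.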

How the results depend on the processing

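All 12 members stayed lower and past the call wherever they had a value, in 177 of 177 gene-by-setting values (adjusted p by limma from 6.62e-06 to 1.26e-03). The filter at 20 CPM left 9 members with a value. The authors' size factors shifted the median of all genes by -0.11, and calls over all genes moved to 1154 lower and 651 higher, against 766 and 729. Members then fell by -1.24 to -0.74. Relative to collagen I, all 141 values stayed short of the threshold (adjusted p 0.0613 to 0.996); without FGFR1-CKO replicate 3, 1458 of all genes were called higher on that scale, against 730.

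Relative to osteoblast markers the count of members called lower was 0 to 1 with 1 library left out. Without Control replicate 3 the 1 called was P4ha3 (-0.38, adjusted p = 0.0478), not Serpinh1. It was 2 without both Control replicate 4 and FGFR1-CKO replicate 3, P4ha2 being the second (-0.33, adjusted p = 0.0255). With a pseudocount of 5, 1 member was called higher, P3h3 (0.17, adjusted p = 0.0467). The cause was not tested. Of the pathway lists together, 37 genes fell, and 35 to 44 under the alternatives, which were added for these lists after the data were seen, as was leaving the reads of all higher genes out of the totals. With a pseudocount of 5, 1 of the 2 listed general folding genes fell, and 2 of the 7 endothelial markers, against 4. With the authors' size factors, all 44 listed genes of the pathway lists passed, Creb3l2, P4htm, Plod1 and Loxl4 among them. So did Comp and all 14 osteoblast markers.

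Ratios kept p at 0.05 or above in every setting run, and with 1 library left out the smallest possible p is 0.0571. The 2 planned edgeR count tests were not run: the inferred totals turned every value into whole reads, but the lowest listed value of a library stood for 2 to 25 reads, so the worth of 1 read could not be read from the low values alone and the values were analysed as CPM. No paired analysis was possible because the replicate numbers only follow the order of deposit and pair nothing.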
